A study of Rattus norvegicus with 12 samples.

Results

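A list of 59 genes that copy DNA or supply its building blocks was followed in a normal and a tumor cell line of rat liver, each grown with or without arginine. The members were taken by gene symbol from the array's annotation, and where several probe sets carried a gene, the brightest on average stood for it. Of the 59 genes, 43 had a probe set that carries their symbol alone, out of 10411 such genes on the array. Of these 43, 42 were tested, and Orc4, a subunit of the origin recognition complex, was over the limit of expression on 1 array, too few to be tested. The other 16 genes, Orc1, Orc3, Cdc6, Cdt1, Gmnn, Mcm10, Cdc45, Gins2, Cdc7, Dbf4, E2f1, Pole2, Rfc5, Rrm2, Uhrf1 and Chaf1b, were not analysed here. The probe set for Rrm2 carries a second symbol as well.

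Normal cells were WB-F344, a diploid line of rat liver epithelial cells, and tumor cells were GP7TB, a tumorigenic line that was made from the normal one with a chemical treatment. At no more than 80% confluence both lines were moved to a medium for hepatic cells with 5% fetal bovine serum, either with L-arginine HCl at 0.168 g/l (arginine-sufficient) or with no added arginine (arginine-deficient), and RNA was taken after 18 hours. There were 3 independent experiments for each line, each with 1 sufficient and 1 deficient culture, so that each of the 4 groups held 3 arrays. Each line stands for its cell type alone, and the serum brought its own amino acids to both media.

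Before a cell divides, the origin recognition complex, Cdc6 and Cdt1 load the Mcm2 to Mcm7 helicase onto DNA, and cyclin E with its kinase and the kinase Cdc7 then help to start synthesis. Primase and DNA polymerase alpha lay down primers, clamp loader and clamp (Pcna) hold polymerases delta and epsilon on the strand, replication protein A covers single strands, and Fen1 and Lig1 join the short pieces. Ribonucleotide reductase (Rrm1 with Rrm2), thymidylate synthase (Tyms) and thymidine kinase (Tk1) feed nucleotides into this work, while Chaf1a and Asf1b place histones on the new DNA. Most of these genes are known targets of the E2F factors, which the retinoblastoma protein holds in check in resting cells, and their RNA is highest around the start of S phase.

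Promoters of 38 of the 42 tested genes were found in a table from RefSeq (rat build GRCr8), and the 250 bases before the start of each were read on the gene's strand. Those of Mcm4, Rpa3, Ccne2 and Gins4 were not in it and were not searched. In normal cells the signals of all helicase subunits, Mcm2 to Mcm7, were highest in both cultures of experiment 2. Of these, Mcm2, Mcm5 and Mcm7 are shown, which carry the motifs searched for, as does Mcm6, while Mcm3 carries none. Sequences are also shown for Tyms and Tk1, which had the same direction in all experiments. The sequences lie at chr4:122918095-122918344 (minus strand), chr19:13488563-13488812 (plus), chr12:22163179-22163428 (minus), chr9:120776084-120776333 (minus) and chr10:103544778-103545027 (minus), and capitals mark E2F-type motifs.
Mcm2: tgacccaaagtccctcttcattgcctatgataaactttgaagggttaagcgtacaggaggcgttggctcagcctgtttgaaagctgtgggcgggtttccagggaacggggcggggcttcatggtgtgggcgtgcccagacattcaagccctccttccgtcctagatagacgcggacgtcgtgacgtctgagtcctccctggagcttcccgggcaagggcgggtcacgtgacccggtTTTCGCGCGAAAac
Mcm5: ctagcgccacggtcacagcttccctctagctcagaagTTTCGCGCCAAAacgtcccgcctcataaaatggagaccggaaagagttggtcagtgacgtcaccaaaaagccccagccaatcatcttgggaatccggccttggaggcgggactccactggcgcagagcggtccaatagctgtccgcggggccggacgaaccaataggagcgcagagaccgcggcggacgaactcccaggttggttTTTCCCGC
Mcm7: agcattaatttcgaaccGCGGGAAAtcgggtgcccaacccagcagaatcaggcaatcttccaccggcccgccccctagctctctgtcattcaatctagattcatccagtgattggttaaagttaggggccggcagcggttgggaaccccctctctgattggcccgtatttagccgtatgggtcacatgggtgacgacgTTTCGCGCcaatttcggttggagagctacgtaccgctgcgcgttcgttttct
Tyms: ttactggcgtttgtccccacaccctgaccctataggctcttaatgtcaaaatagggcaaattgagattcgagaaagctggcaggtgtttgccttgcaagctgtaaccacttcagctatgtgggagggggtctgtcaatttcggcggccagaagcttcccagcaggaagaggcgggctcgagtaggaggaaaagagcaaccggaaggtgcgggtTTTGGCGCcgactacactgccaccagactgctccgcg
Tk1: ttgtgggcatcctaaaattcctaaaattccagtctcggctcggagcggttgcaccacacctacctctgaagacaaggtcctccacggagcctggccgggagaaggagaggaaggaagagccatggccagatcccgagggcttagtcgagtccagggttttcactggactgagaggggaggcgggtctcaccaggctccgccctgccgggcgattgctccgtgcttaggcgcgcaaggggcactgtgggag
The motifs searched on both strands were TTTCCCGC, TTTGGCGC, TTTCGCGC and TTTGCCGC, and matches on opposite strands may overlap, as in Mcm2 and at the first site of Mcm5. At least 1 of them was in 10 of the 38 promoters (26.3%), those of Orc5, Mcm2, Mcm5, Mcm6, Mcm7, Gins1, Gins3, Pola1, Tyms and Ung, against 2.28% of 19005 promoters of protein-coding genes. In Tyms the match began 37 bases before the start, and none was in the window of Tk1. A second motif of cell cycle promoters, CCAAT, was in 50% of the members' promoters and 35.5% of all, and the cell cycle homology motif TTTGAA was in 7.89% of the members' and 15.2% of all. In 18 genes of mitosis, for comparison, the E2F motifs were in 5.56%, CCAAT in 72.2% and TTTGAA in 55.6%. A match describes the letters of this window and does not show that a factor binds there. The motifs were picked after the signals had been seen.

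Each value is a signal of Affymetrix Microarray Suite on a linear scale, and changes are log2 differences from limma with their standard error (SE, n = 3 arrays a group), adjusted over 9745 probe sets. Arrays of a group correlated at 0.928 to 0.967 over probe sets. The normal arrays were scanned on 3 days and all tumor arrays on another, and the sufficient normal array of experiment 2 was the only array of its day and of its chip lot. Of 6 hepatocyte markers, including Alb and Hnf4a, none was over the limit of expression on all arrays, while Krt8 and Vim were high on every array and Krt18, Krt19 and Cdh1 were over the limit on none. The summed signal of 5 fibroblast and stellate markers was 32317 to 55446 in normal and 724 to 1231 in tumor cells, mostly from Col1a1 and Col1a2, with Acta2 over the limit on all arrays and Dcn and Pdgfrb on none. Its part in the differences between the lines was not tested. Of 4 leukocyte markers, Cd14 was over the limit on all arrays, Lyz2 on 2, and Ptprc and Cd68 on none. The 3 endothelial markers on the array were over it on none. RNA quality was read from Gapdh, whose signal at the 3' end over that at the 5' end was 0.998 to 1.25 with and 1.01 to 1.38 without arginine in normal cells, and 1.09 to 1.14 and 1.13 to 1.23 in tumor cells. This ratio was higher in the deficient array of every experiment, and its part in the changes below was not tested.

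In normal cells, no replication gene passed the test for a change without arginine. Of the 42 genes, 32 were below 0 and 10 above, with a median log2 change of -0.24 against -0.04 over all tested probe sets. With limma, 0 of 42 passed at an adjusted p under 0.05, where 0.164% of all probe sets did (0.133% as higher and 0.0308% as lower). At an unadjusted p under 0.05 there were 4 lower and 0 higher genes, but the share over all probe sets was not taken. With the experiment as a block, which compares the cultures of 1 experiment with each other, 1 of 42 fell, Tk1, where 2.41% of all probe sets passed in either direction, 1.03% as lower and 1.39% as higher. Scan days differed. On the day of experiment 3 the members' median was -0.40, with 33 below 0, while on the day of both cultures of experiment 1 and the deficient one of experiment 2 it was 0.055, with 19 below 0 and 23 above. That day's extra deficient culture had no partner on it, and the matched pair of experiment 1 alone gave a median of -0.18, with 28 below 0. In bulk RNA, fewer cells in S phase and less of these RNAs in each cell cannot be told apart.

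Tk1 makes thymidine monophosphate from thymidine. Its signals in normal cells were 1706, 2893 and 1449 with arginine and 779, 2167 and 526 without, in experiments 1 to 3. The deficient culture was the lower one of every experiment, while the groups overlapped because both cultures of experiment 2 were high. The log2 change was -1.0 (SE 0.47, limma adjusted p = 0.534), and with the block the adjusted p was 0.0497 with limma. Within the scan days that held both groups, the log2 change was -1.46 and -0.39. The latter sets the deficient cultures of experiments 1 and 2 against the sufficient culture of experiment 1 alone, without the high sufficient culture of experiment 2. With the block, 0 genes passed without experiment 1 or without experiment 3, and 2 passed without experiment 2. These fits had fewer arrays, and the share of all probe sets past the threshold in them was not taken.

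The other genes nearest to the threshold in normal cells were Tyms, Rpa3, Pola2, Chaf1a and Pole, none of which passed. Tyms, which makes the thymidine nucleotide from the uridine one, was at 449.7, 625 and 614 with arginine and 260.2, 446 and 384 without. Rpa3, the smallest subunit of replication protein A, was at 471, 601 and 537 against 255, 463 and 397. These were the only members whose normal groups did not overlap with the deficient arrays lower, while Gins3, of the helicase activator GINS, did not overlap the other way. Such a gap was found for 7.76% of all probe sets in the lower and 6.18% in the higher direction. All normal signals of Gins3 were under the limit of expression. Its log2 change of 0.41 was -0.10 with low signals raised to that limit. The log2 change was -0.65 for Tyms (SE 0.22, limma adjusted p = 0.358) and -0.57 for Rpa3 (SE 0.22, adjusted p = 0.445). Within the scan days it was -0.68 and -0.40 for Tyms and -0.44 and -0.46 for Rpa3, the same sign on both.

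Chaf1a, the large subunit of chromatin assembly factor 1, was at 307, 482 and 242 with arginine and 96.0, 372 and 39.2 without. It was the only member to be at least 2-fold lower in at least 6 of the 9 ratios of deficient to sufficient arrays, a rule that 0.359% of all probe sets met, and no member was 2-fold higher by it, where 0.77% of all were. None met it as lower without deficient array 1 or without deficient array 3, while 3 did without sufficient array 3 or deficient array 2. Its log2 change of -1.56 (SE 0.72, limma adjusted p = 0.52) rests in part on signals under the limit of expression, and it was -0.58 with low signals raised to that limit. Pola2, the second subunit of polymerase alpha, had a similar low array, with 176, 265 and 223 against 41.9, 188 and 155. Pole, the catalytic subunit of polymerase epsilon, was at 607, 730.5 and 393 against 324, 559.5 and 287.

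In tumor cells, 1 replication gene, Rpa3, fell without arginine, and more passed once the cultures of an experiment were compared with each other. Of the 42 genes, 30 were below 0 and 12 above, with a median log2 change of -0.26 against -0.05 over all tested probe sets. The 1 of 42 called compares with 1.91% of all probe sets in either direction, 0.944% as lower and 0.965% as higher. At an unadjusted p under 0.05 there were 6 lower and 0 higher genes, but again the share over all probe sets was not taken. With the block, 6 fell and 0 rose (Pole, Rpa3, Tyms, Tk1, Chaf1a and Asf1b), where 11% of all probe sets passed in either direction, 6.18% as lower and 4.79% as higher. Of the 5 among them whose promoter was searched, 1 (20%) carried an E2F-type motif, against 26.3% of the 38 members searched. The deficient arrays lay wholly below the sufficient ones for 15 of the 42 genes and wholly above for none, against 13.6% and 9.69% of all probe sets. Within the chip lots the members' median was -0.052, with 23 of 42 below 0, in the lot of 2 sufficient and 2 deficient arrays, and -0.42, with 36 below 0, in the lot of 1 array each. These lots do not keep the cultures of an experiment together, and the latter sets the deficient culture of experiment 1 against the sufficient one of experiment 2. The number past the threshold without the block was 2 when deficient normal array 1 was left out, which enters only through the shared estimate of spread.

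**Figure D1:**
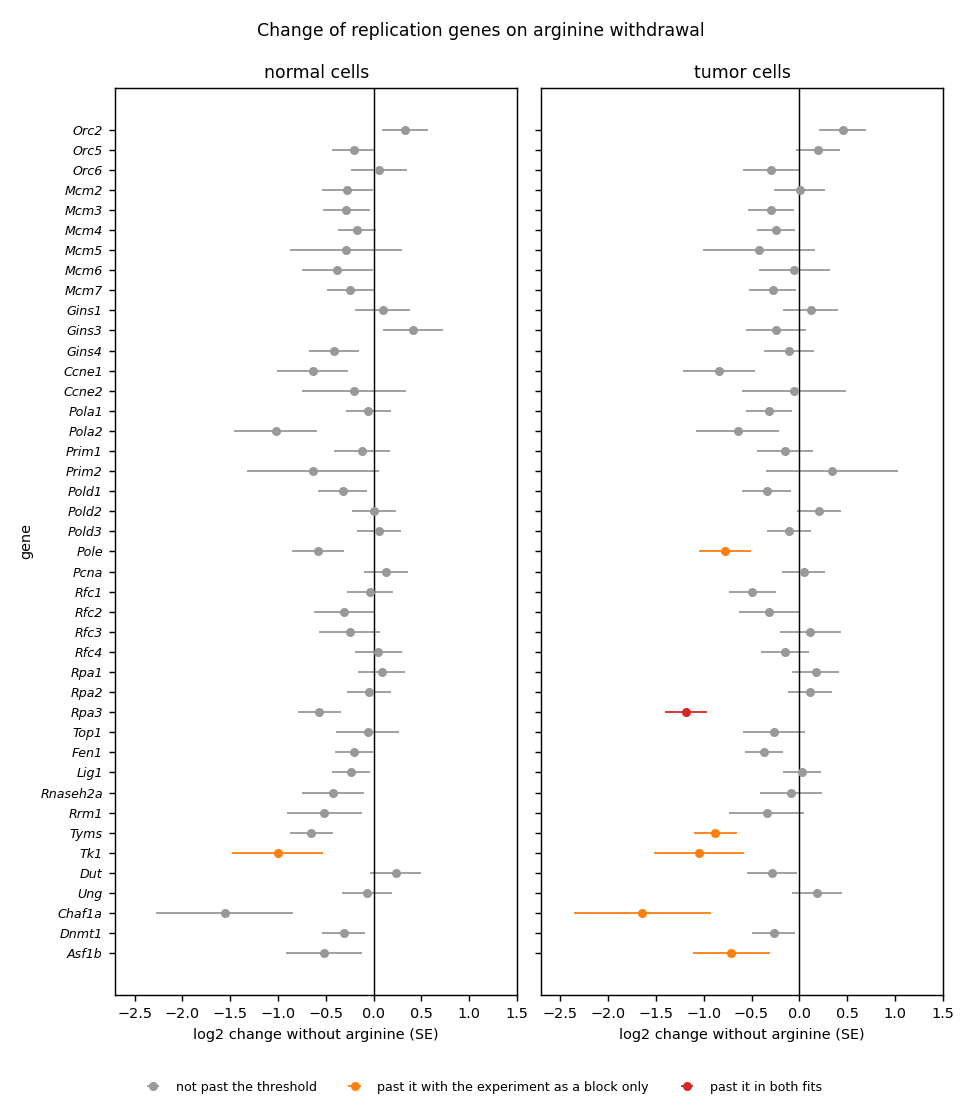
Log2 change without arginine (deficient minus sufficient, horizontal axis) of the 42 tested genes, in normal cells on the left and tumor cells on the right, with bars for the SE. Points in red passed limma in both fits and points in orange passed only with the experiment as a block. Most points lie left of 0 in both panels, and Rpa3 in tumor cells is the red one.

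Rpa3 was at 1240.5, 1062 and 868 with arginine and at 438, 436 and 509 without it in tumor cells, so that the deficient cultures lay close together and far below the others. It was 2.27-fold lower, with a log2 change of -1.19 (SE 0.22, limma adjusted p = 0.0196, and 0.00188 with the block). Within the 2 chip lots that held both groups, the change was -1.14 and -1.28. The adjusted p of limma was 0.0852 without sufficient array 1, 0.0936 without sufficient array 2 and 0.0963 without deficient array 2, with log2 changes of -1.06, -1.17 and -1.15. Rpa3 was also the only member that met the 2-fold rule in tumor cells, as 1.4% of all probe sets did in the lower and 1.08% in the higher direction, and none met it without sufficient array 1, while 2 did without deficient array 3. The other subunits of replication protein A did not pass, with log2 changes of 0.17 (SE 0.25) for Rpa1 and 0.11 (SE 0.23) for Rpa2.

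Both enzymes of thymidine nucleotide supply fell with the block. Tyms was at 295, 249.9 and 254 with arginine and 150.5, 144 and 138 without in tumor cells, and the deficient arrays were under the limit of expression. Its log2 change was -0.88 (SE 0.22, limma adjusted p = 0.0609, and 0.00771 with the block), or -0.75 with low signals raised to the limit, and -0.95 and -0.73 within the chip lots. Tk1 was at 2194, 2591 and 2578 against 605, 1592 and 1718. The deficient culture of experiment 1 was by far the lowest, and the groups did not overlap. The log2 change of Tk1 was -1.05 (SE 0.47, limma adjusted p = 0.306, and 0.016 with the block), and within the chip lots it was -0.52 and -2.10.

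Among the genes that place histones on new DNA, both Chaf1a and Asf1b were lower in every deficient tumor culture. Chaf1a was at 501, 464 and 531 with arginine and 52.2, 239.7 and 324 without. The log2 change was -1.64 (SE 0.72, limma adjusted p = 0.288, and 0.0411 with the block), but -1.10 with low signals raised to the limit of expression, and -0.89 and -3.15 within the chip lots. Asf1b, a carrier of histones H3 and H4, was at 1424, 1682 and 1942 against 771, 1013 and 1358. Over experiments 1 to 3 its log2 ratio was -0.89, -0.73 and -0.52. The mean was -0.71 (SE 0.40, limma adjusted p = 0.433, and 0.00954 with the block), and within the chip lots it was -0.50 and -1.13.

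Pole was at 564, 660.4 and 639 with arginine and 309.5, 348 and 439 without in tumor cells, and its log2 change was -0.78 (SE 0.27, limma adjusted p = 0.176, and 0.0119 with the block), with -0.62 and -1.09 within the chip lots. Ccne1, the cyclin E that drives entry into S phase, was at 983, 921 and 1022 against 305, 627 and 841. Its groups did not overlap and it did not pass in either fit, with a log2 change of -0.84 (SE 0.37, limma adjusted p = 0.298, and 0.0627 with the block). The count with the block was 1 without experiment 1, 3 without experiment 2 and 7 without experiment 3. Each of these fits also had fewer arrays, and the share of all probe sets past the threshold in them was not taken. The counts thus do not show which experiment the calls rest on.

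**Figure D2:**
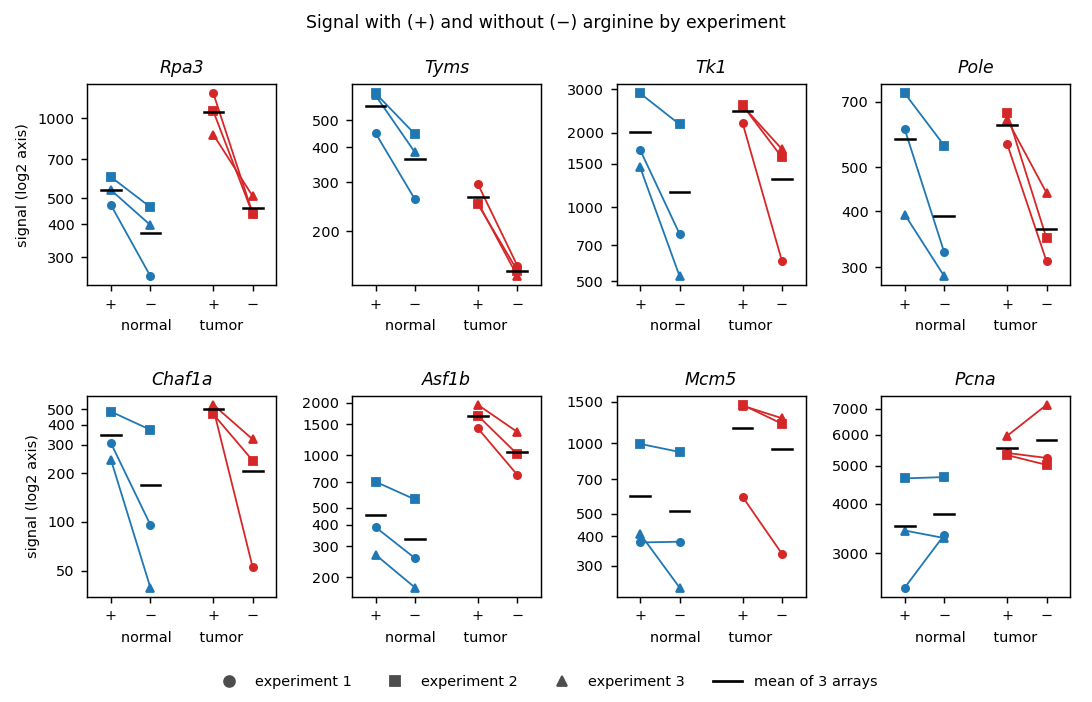
Signal (log2 axis) of 8 replication genes with (+) and without (−) arginine in normal cells (blue) and tumor cells (red), with lines that join the cultures of an experiment and black bars at the mean of 3 arrays. The lines of Rpa3, Tyms, Tk1, Pole, Chaf1a and Asf1b run down in all 6 experiments, and those of Mcm5 and Pcna do not.

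None of the 9 tested genes of the helicase and its GINS activator passed in either cell type, with log2 changes of -0.42 to 0.41 in normal and -0.42 to 0.12 in tumor cells. Mcm2 was at 964, 1574 and 937 with arginine and 929.9, 1210.1 and 714 without in normal cells, and at 1848, 1686 and 1875 against 1232, 2124 and 2243 in tumor cells. Mcm5 was at 377, 992 and 409.9 against 379.5, 917 and 242 in normal cells, and at 590.0, 1456 and 1445 against 337, 1209.9 and 1277 in tumor cells. The spread between experiments was wider than the gap between media for both. Mcm4, in contrast, did not overlap in tumor cells, at 1546, 1697 and 1562 against 1417, 1303 and 1338.

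The log2 change in normal and tumor cells was -0.27 and 0.00 for Mcm2 (SE 0.27 for each), -0.29 and -0.30 for Mcm3 (SE 0.24), -0.17 and -0.24 for Mcm4 (SE 0.20), -0.29 and -0.42 for Mcm5 (SE 0.59), -0.38 and -0.05 for Mcm6 (SE 0.37) and -0.24 and -0.28 for Mcm7 (SE 0.24). The sign was not settled for Mcm2 and Mcm6 in tumor cells, where quantile normalization gave -0.02 for Mcm2 and median centring gave 0.03 for Mcm6. In the matched pairs of normal experiments 1 and 3, each on a scan day of both groups, the log2 ratios of Mcm2 to Mcm7 were -0.30 to 0.011 and -0.83 to -0.31. Within the chip lots Mcm5 in tumor cells was at 0.43 and -2.11. Paired by experiment, Mcm3, Mcm4 and Mcm7 were lower in the deficient culture of all 6 experiments, and their tumor groups did not overlap. With the block the mean change over both lines was -0.29 for Mcm3 (SE 0.095, limma adjusted p = 0.0601), -0.21 for Mcm4 (SE 0.094, adjusted p = 0.156) and -0.26 for Mcm7 (SE 0.087, adjusted p = 0.0653).

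Pcna, the sliding clamp, was at 2449.8, 4647 and 3423 with arginine and 3333, 4684 and 3276 without in normal cells, and at 5395, 5328 and 5965 against 5240.0, 5030.5 and 7153 in tumor cells. The groups overlapped in both lines, and the log2 change was 0.13 in normal and 0.05 in tumor cells (SE 0.23 for each), with -0.09 in tumor cells under quantile normalization. Rrm1, the large subunit of ribonucleotide reductase, was at 819, 1326 and 998 against 586, 1401 and 452 in normal cells and at 1294, 1284 and 2047 against 715, 1422 and 1639 in tumor cells. Its log2 change was -0.52 and -0.34 (SE 0.40 for each), and in both lines the groups overlapped, with the deficient normal culture of experiment 2 above all 3 sufficient ones. The clamp loader genes Rfc1 to Rfc4 and the 3 genes of Okazaki fragment maturation, Fen1, Lig1 and Rnaseh2a, did not pass in either line or fit.

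Whether the lines differed in their response was tested by the difference of the log2 changes, tumor minus normal. With limma 0 of the 42 genes passed, as did 0% of all probe sets. None reached an unadjusted p under 0.05, for which the share over all probe sets was not taken. With the block, 0 of 42 passed, where 0.0513% of all probe sets did (0.041% as lower and 0.0103% as higher). Rpa3 had the smallest p, with a difference of -0.62 (SE 0.32, limma adjusted p = 0.913). The 95% intervals of single genes were wide and reached from -2.26 to 3.08 over the members, so that a like response of the lines is not shown.

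Taken over both lines, the mean change passed for 2 genes, both lower, Rpa3 and Tyms, where 2.96% of all probe sets passed in either direction, 1.35% as lower and 1.6% as higher. No member passed as higher. The mean log2 change was -0.88 for Rpa3 (SE 0.16, limma adjusted p = 0.0109) and -0.77 for Tyms (SE 0.16, adjusted p = 0.0209). That of Tyms was at an adjusted p of 0.0505 without sufficient normal array 3, 0.0532 without sufficient tumor array 1, 0.0531 without sufficient tumor array 2 and 0.0552 without deficient tumor array 2, and 5 genes passed without deficient normal array 2. With the block, 8 genes fell (Ccne1, Pola2, Pole, Rpa3, Tyms, Tk1, Chaf1a and Asf1b) and 1 rose, where 14.7% of all probe sets passed, 8.58% as lower and 6.1% as higher. The gene that rose was Orc2, of the origin recognition complex, with a mean log2 change of 0.39 (limma adjusted p = 0.044 with the block and 0.239 without).

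Orc2 was at 675, 806 and 656 with arginine and 966, 735 and 990.0 without in normal cells, and at 602, 478 and 356 against 890.3, 586 and 502 in tumor cells. It was higher in 5 of the 6 deficient cultures. By direction alone, 19 genes were lower and 3 higher in all 3 deficient normal cultures, where 23.2% and 17.1% of all probe sets were, and 20 were lower and 4 higher in all 3 deficient tumor cultures, where 28.6% and 21.3% were. In all, 14 of the 42 genes were lower in the deficient culture of all 6 experiments, where 10.1% of all probe sets were, and 1, Rpa1, was higher in all, where 6.96% were. The 14 were Mcm3, Mcm4, Mcm7, Ccne1, Pola2, Pold1, Pole, Rpa3, Fen1, Tyms, Tk1, Chaf1a, Dnmt1 and Asf1b, which come from every role on the list but origin licensing and the clamp with its loader.

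The members also moved together between experiments of the same line, at the same arginine level. In normal cells both arrays of experiment 2 lay above the other 4 arrays for 26 of the 42 genes (61.9%), against 10.1% of all probe sets. Both arrays of experiment 3 lay below the other 4 for 10 genes (23.8%, against 8.91% of all). The median log2 difference of experiment 2 from the others was 0.58 over the members and -0.01 over all probe sets, and it was 1.47 for Mcm5, 1.18 for Mcm6, 1.32 for Tk1, 1.71 for Chaf1a, 1.26 for Asf1b and 1.0 for Rrm1.

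**Figure D3:**
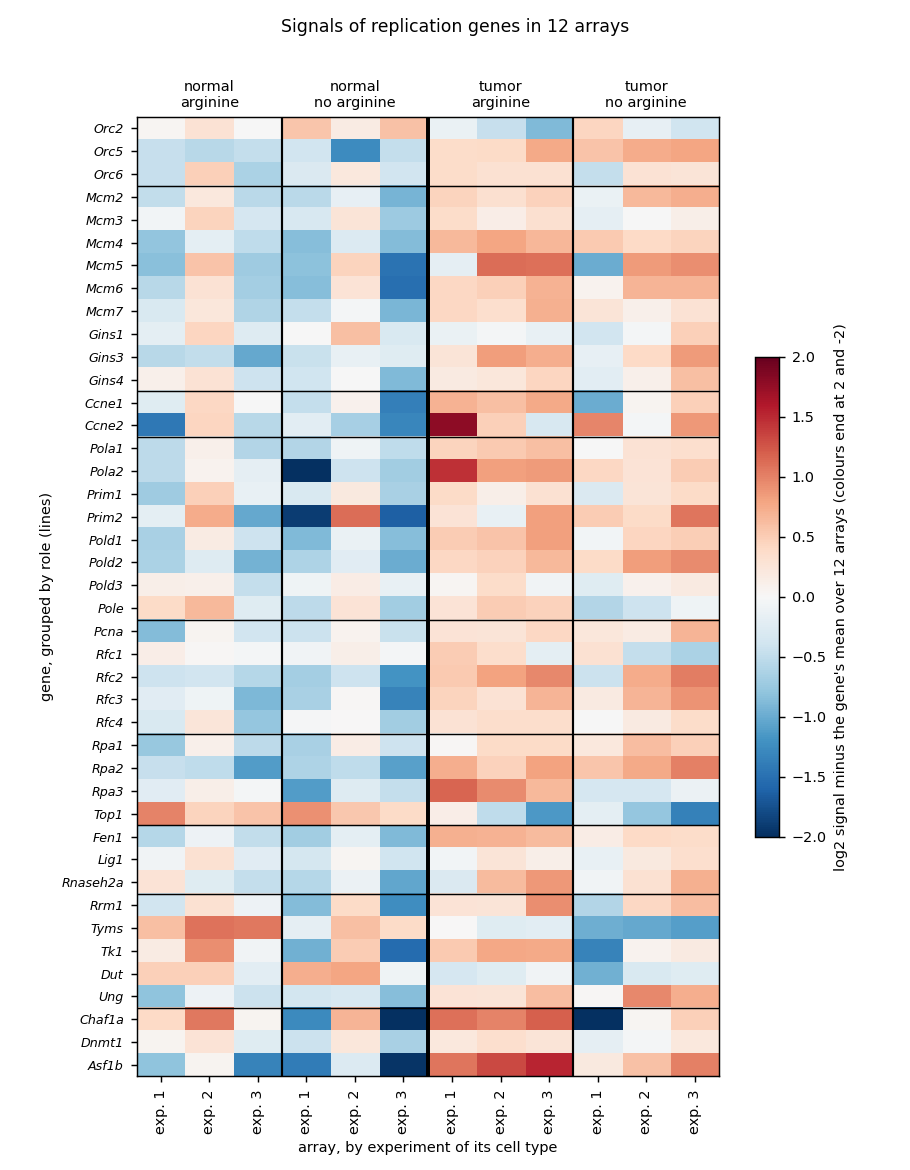
Log2 signal of each of the 42 tested genes (rows, grouped by role) minus that gene's mean over all 12 arrays (columns, by group and experiment), with red above and blue below the mean. Normal columns are mostly blue and tumor columns mostly red, and both normal columns of experiment 2 are redder than those of experiments 1 and 3.

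In tumor cells it was the deficient culture of experiment 1 that stood lowest, for 27 of the 42 genes. For this count the share over all probe sets was not taken. Both tumor arrays of experiment 1 lay below the other 4 for 9 genes (21.4%, against 11.6% of all). They lay above for 3 (7.14%, against 17.1%). In experiment 3 both lay above for 8 genes (19%, against 8.51%) and below for 1 (2.38%, against 12%). In experiment 2 there were 0 either way, where 3.2% of all lay above and 2.34% below. The members' median change without arginine was -0.41 in experiment 1, -0.16 in experiment 2 and -0.05 in experiment 3, and 37, 30 and 23 of the 42 genes were below 0. In normal cells the medians were -0.18, -0.16 and -0.40. Without the deficient tumor array of experiment 1 the members' median change in tumor cells was -0.02. Without the sufficient normal array of experiment 2, that of normal cells was -0.07, without the deficient one of experiment 3 -0.038, and without the deficient one of experiment 2 it was -0.43.

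Genes of mitosis were set beside them. Of 21 tested, 21 were below 0 in tumor cells, with a median log2 change of -1.02, and 5 fell (Kif20a, Mki67, Spag5, Plk4 and Ncapd2), or 16 with the block. In normal cells 0 of 21 passed, with a median of -0.30, and 1 fell with the block. Of all probe sets, 0.944% fell in tumor cells, or 6.18% with the block, and 0.0308% in normal cells, or 1.03% with the block. Over single experiments the median of the mitosis list in tumor cells was -1.22, -1.02 and -0.76 and kept the order of that of the replication genes, at a larger size in each. In normal cells it was -0.77, 0.05 and -0.29. No test compared the lists with each other.

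**Figure D4:**
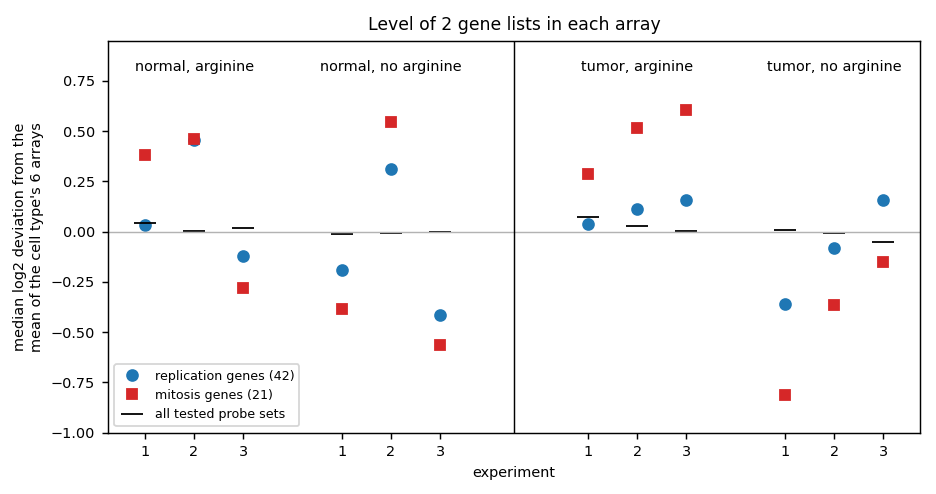
Median log2 deviation of 42 replication genes (blue circles), 21 mitosis genes (red squares) and all tested probe sets (black lines) from the mean of the 6 arrays of the cell type, for each array by group and experiment. All probe sets stay near 0, the replication genes of normal experiment 2 are at 0.46 and 0.31, and the deficient tumor array of experiment 1 is at -0.36 for replication and -0.81 for mitosis genes.

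Between the lines the list stood higher in tumor cells. With arginine, 37 of the 42 genes were above 0, with a median log2 difference (tumor minus normal) of 0.64 against 0.00 over all probe sets. Of the 42, 16 passed as higher and 2 as lower, where 34.6% of all probe sets passed, 16.4% as higher and 18.1% as lower. Without arginine the median was 0.63, and 17 were higher and 3 lower, where 40.7% of all probe sets passed, 19.5% as higher and 21.2% as lower. The groups did not overlap for 20 higher and 3 lower genes with arginine, against 24.5% and 24.7% of all probe sets, and for 17 higher and 3 lower ones without it, against 24.5% and 24.1%. No scan day and no chip lot held both cell types, so that a difference between the lines and one between days or lots cannot be told apart. The run records note trypsin for tumor experiments 1 and 3, none for tumor experiment 2, and do not mention it for normal cells. Median centring moved the median of all probe sets to 0.12 and gave 18 higher and 2 lower genes with arginine. Without sufficient normal array 1, 10 were higher and 1 lower.

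**Figure D5:**
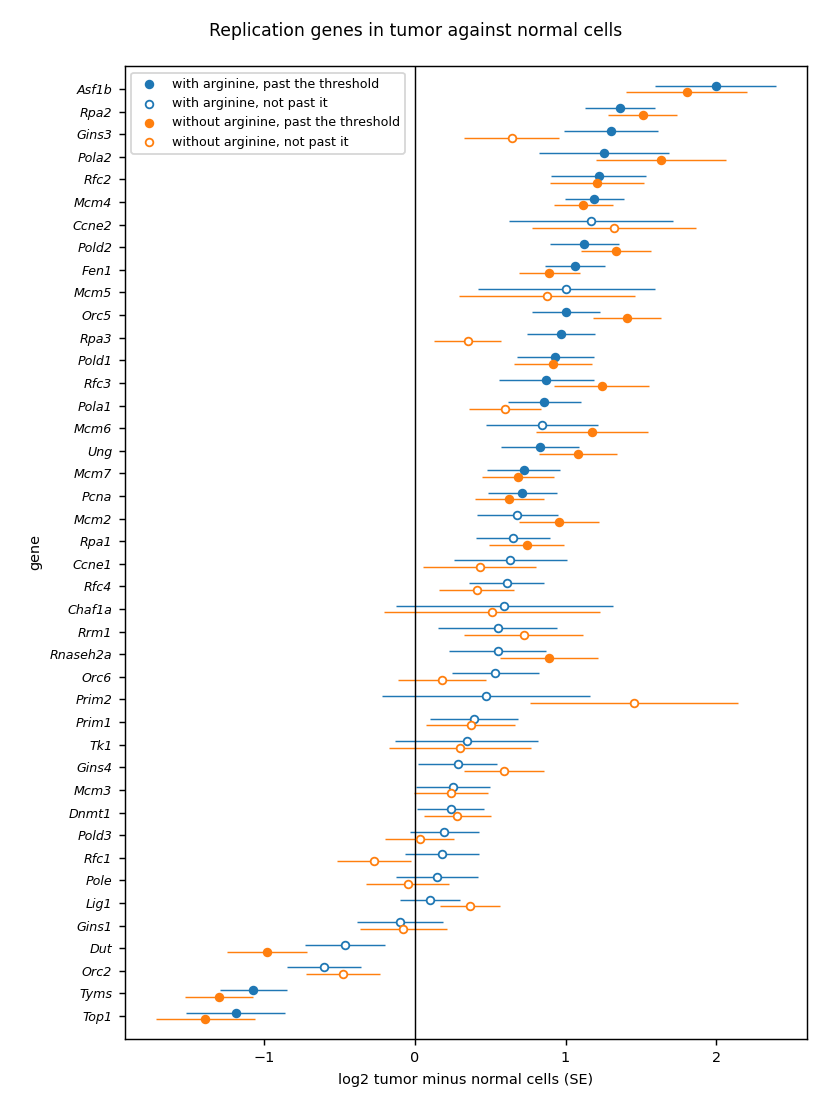
Log2 difference between tumor and normal cells (tumor minus normal, horizontal axis) of the 42 tested genes with arginine (blue) and without (orange), with bars for the SE. Filled points passed limma, and from Asf1b at the top to Top1 at the bottom most genes lie right of 0.

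Asf1b led the list, at 387, 704 and 269 in normal and 1424, 1682 and 1942 in tumor cells with arginine. It was 3.99-fold higher in tumor cells, a log2 difference of 2.0 (SE 0.40, limma adjusted p = 0.00179), and of 1.80 without arginine (SE 0.40, adjusted p = 0.00301). Rpa2, the middle subunit of replication protein A, was at 271, 261 and 170.5 against 615, 513 and 647, and at a log2 difference of 1.36 (SE 0.23, adjusted p = 0.000513). Rpa3 was higher by 0.97 with arginine (SE 0.22, adjusted p = 0.00445), while without it the difference was 0.35 (SE 0.22) and did not pass.

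Of the helicase, Mcm4 and Mcm7 were higher in tumor cells with arginine, and Mcm2, Mcm4, Mcm6 and Mcm7 without. Mcm4 was at 574, 866 and 695 in normal and 1546, 1697 and 1562 in tumor cells, and the log2 difference was 1.19 (SE 0.20, limma adjusted p = 0.000444), with no overlap. Those of the other subunits with arginine were 0.68 for Mcm2 (SE 0.27), 0.25 for Mcm3 (SE 0.24), 1.01 for Mcm5 (SE 0.59), 0.85 for Mcm6 (SE 0.37) and 0.72 for Mcm7 (SE 0.24, adjusted p = 0.0329). Gins3 passed as well, at 1.30 (SE 0.31, adjusted p = 0.00591). Its normal signals of 90.9, 94.9 and 66.0 were under the limit of expression, and with low signals raised to the limit the difference was 0.23 (adjusted p = 0.279).

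All 8 polymerase and primase genes were above 0 with arginine and 4 passed, Pola1, Pola2, Pold1 and Pold2. Of the 8, Prim2 was at 0.47 (SE 0.69) with signals mostly under the limit of expression, and at -0.09 with low signals raised to it. Pola2 was at 176, 265 and 223 in normal and 692, 446 and 456 in tumor cells, a log2 difference of 1.26 (SE 0.43, limma adjusted p = 0.0374). Pold2, a subunit of polymerase delta, was at 826, 1074 and 666 against 1714, 1776 and 2016, and without arginine at 837, 1098 and 644 against 1667, 2303 and 2462. The latter difference was 1.33 (SE 0.23, adjusted p = 0.000527). Orc5, of the origin recognition complex, was at 252, 139 and 236 against 488, 553 and 573 without arginine, a difference of 1.41 (SE 0.23, adjusted p = 0.000296).

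Pcna and 2 clamp loader genes were higher too. Rfc2 was at 997, 1018 and 891 in normal and 1894, 2325 and 2589 in tumor cells with arginine, a log2 difference of 1.22 (SE 0.31, limma adjusted p = 0.00845). Rfc3 was at 326, 515 and 202 against 577, 816 and 951 without arginine, a difference of 1.24 (SE 0.32, adjusted p = 0.007). For Pcna the difference with arginine was 0.71 (SE 0.23, adjusted p = 0.0268). The calls of Pcna, Mcm7 and Pola2 with arginine were lost when any of 5 single arrays was left out, at adjusted p of 0.0508 to 0.127, 0.0521 to 0.141 and 0.0616 to 0.12. These were sufficient normal arrays 1 and 3 and the 3 sufficient tumor arrays.

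Against this direction, Tyms, Top1 and Dut were lower in tumor cells. Tyms was at 449.7, 625 and 614 in normal and 295, 249.9 and 254 in tumor cells with arginine, with no overlap, and 2.10-fold lower, with a log2 difference of -1.07 (SE 0.22, limma adjusted p = 0.00228). Without arginine it was -1.30 (SE 0.22, adjusted p = 0.000473). Top1, which takes twists out of DNA in replication and in transcription, was at 1051, 719 and 784 against 574, 370.3 and 236, a difference of -1.19 (SE 0.33, adjusted p = 0.0128). The mean of its probe sets gave -0.72 (adjusted p = 0.0604), and the adjusted p was 0.0558 without sufficient normal array 1 and 0.0649 without sufficient tumor array 3.

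Dut, which removes dUTP so that uracil stays out of DNA, passed without arginine, at 6177, 6466 and 3536 against 1925, 3029.9 and 3161 and a difference of -0.98 (SE 0.26, limma adjusted p = 0.00967). Ung, which cuts uracil out of DNA, was higher in tumor cells, by 0.83 with arginine (SE 0.26, adjusted p = 0.0237) and by 1.08 without (SE 0.26, adjusted p = 0.00469). Tk1 and Rrm1 did not pass with arginine, at 0.35 (SE 0.47) and 0.55 (SE 0.40). Orc4, which was not tested, was at 59.8 to 106 in tumor and 127 to 143 in normal cells with arginine, all under the limit of expression.

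Other genes of the same work were counted from separate lists. Of all probe sets, 0.133% rose in normal and 0.965% in tumor cells, or 1.39% and 4.79% with the block. The shares that fell were 0.0308% and 0.944%, or 1.03% and 6.18% with the block. Between the lines with arginine, 16.4% were higher and 18.1% lower. Of 13 tested genes of the replication fork outside the list, 0 passed for arginine in either line, 2 fell in tumor cells with the block (Top2a and Donson), and 12 were below 0 in tumor cells, with a median of -0.28. Between the lines with arginine 3 of them were higher and 1 lower, with Top2b, a topoisomerase, at -1.58 (SE 0.27, limma adjusted p = 0.000526). Of 22 other genes of nucleotide synthesis, 1 rose in each line, Mthfd2, which supplies one-carbon units in mitochondria. With the block 2 rose in each line, Mthfd2 and Shmt2, and 1 fell, Shmt1 in normal cells (limma adjusted p = 0.0482) and Prps2 in tumor cells (adjusted p = 0.0419). Mthfd2 was at 517, 806 and 523 with arginine and 1371, 1594 and 1633 without in normal cells, and at 1186, 1349 and 1378 against 3459, 3733 and 3863 in tumor cells. The log2 change was 1.35 (SE 0.18, adjusted p = 0.011) and 1.5 (SE 0.18, adjusted p = 0.00162). Shmt2, which feeds the same pool from serine, rose in the mean of both lines by 0.86 (SE 0.17, adjusted p = 0.0184).

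Of 15 tested genes of the E2F and retinoblastoma families, their cyclins and the inhibitors of their kinases, 0 passed for arginine in normal cells and 1 fell in tumor cells. With the block 1 fell in normal cells, Cdkn1a (limma adjusted p = 0.018), 1 in tumor cells, and 5 in the mean of both lines (E2f5, Tfdp1, Ccnd3, Cdkn1a and Cdkn2c). Of all probe sets, 1.03%, 6.18% and 8.58% fell in these 3 comparisons with the block, and 0.944% in tumor cells without it. The one in tumor cells in both fits was Cdkn2c, an inhibitor of the cyclin D kinases, at 2059, 2140.1 and 1592 with arginine and 580.1, 641 and 881 without, a log2 change of -1.47 (SE 0.22, limma adjusted p = 0.00575). In normal cells its change was -0.14 (SE 0.22), and the difference between the lines did not pass (-1.34, SE 0.31, adjusted p = 0.698). Between the lines with arginine, 2 genes of this list were higher and 4 lower, where 16.4% and 18.1% of all probe sets were. Among the lower ones was Cdkn2a, another inhibitor of these kinases, with normal signals of 951 to 2053 and tumor signals under the limit of expression on all 3 arrays.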

How the data were processed

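RNA of 12 cultures was measured on Affymetrix RAE230A arrays, 1 array a culture. The deposited values are intensities, signals that the authors made with Microarray Suite 5.0 on each array and scaled to a common mean; short run records gave chip lot and scan day. They are on a linear scale, and precision is set by how many arrays there were, since depth has no meaning here.

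A floor of 1 was put under the signals before log2. Expression was set at the top 54% of signals of an array (a limit of 146 to 191), and probe sets that reached it on 3 or more of the 12 arrays were tested. Groups came from the labels, and pairs of cultures from the study's account of its experiments and from the labels. Deviations from the group means correlated within pairs at 0.429, 0.42 and 0.383 in normal and 0.56, 0.037 and 0.419 in tumor cells. The partner of every sufficient array was also its closest deficient one, but for tumor sufficient array 2 only by 0.037 against 0.019. Tumor deficient array 2 was closer to sufficient array 3, at 0.275, than to its partner. The correlations thus do not show the pairing of tumor experiment 2. limma 3.58.1 in R 4.3.3 was fitted with 1 mean a group (8 residual degrees of freedom) or with the experiment as a block (4), with empirical Bayes moderation, an intensity trend and Benjamini-Hochberg adjustment over 9745 probe sets. The threshold was an adjusted p of 0.05. The fit was tested on simulated data. Members and lists were chosen with earlier results of these data known. Per array, values were given for genes past the threshold (the 6 largest each way), for those with the smallest p up to 6 where fewer passed, and always for Mcm2 to Mcm7, Pcna, Rrm1, Tyms and Tk1. Alternatives covered the filter, an offset of 16, normalization, moderation, blocks, 1 cell type alone, the probe sets of a gene and leaving out each array. Promoter sequences are from RefSeq, and 4 tested members, Mcm4, Rpa3, Ccne2 and Gins4, were not in that table. Python 3.11.15 (pandas 2.3.3, numpy 2.4.6) read the promoters, and matplotlib 3.10.9 made the figures.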

Additional observations from a re-analysis of the deposited data

How the results depend on the processing

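Of the values recomputed under alternatives, 1705 stayed alike, 34 lost and 19 gained the threshold, 36 moved and 18 changed sign. In the comparison of cultures by experiment (the replicate block), the number past the threshold was 1 in normal cells, 6 in tumor cells and 9 in the mean of both, against 0, 1 and 2 without the block, and it changed no call in the difference between lines. With low signals raised and the block, chosen after seeing the data, these were 2, 8 and 9, where 3.64%, 12.6% and 16.7% of all probe sets passed. A plain linear model gave 0 in tumor cells and 1 in the mean, and the chip lot as a block gave 1 in the mean. The median change in normal cells was -0.10 with scan day and -0.068 with chip lot as a block. Leaving out single arrays gave medians of -0.43 to -0.038 in normal cells, -0.31 to -0.015 in tumor cells and -0.24 to 0.21 for the difference, and counts of 0 to 2 in tumor cells, 1 to 5 in the mean and 11 to 24 for tumor minus normal with arginine. The count of 11 came without sufficient normal array 1. By the 2-fold rule the count was 0 to 3 in normal and 0 to 2 in tumor cells with single arrays left out, 0 in both when 9 of 9 ratios were asked for, and 0 in normal cells with low signals raised.

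Signs that turned belonged to changes that had not passed. In normal cells Mcm5 was at 0.044 with scan day and 0.16 with chip lot as a block. In tumor cells quantile normalization gave -0.018 for Mcm2 and -0.088 for Pcna, and median centring gave 0.028 for Mcm6. With single arrays left out, the normal change ranged from -0.82 to 0.16 for Mcm5, from -0.86 to 0.026 for Mcm6 and from -0.10 to 0.36 for Pcna. The tumor change ranged from -0.155 to 0.28 for Mcm2, from -0.85 to 0.21 for Mcm5, from -0.157 to 0.155 for Mcm6, from -0.114 to 0.14 for Pcna and from -0.58 to 0.022 for Rrm1. The cause of these shifts was not tested. Signals of Prim2, Gins3, Ccne2, Pola1, Pola2, Tyms, Chaf1a, Orc5, Pold3 and Rpa2 were under the limit of expression on some arrays, which limits their fold changes.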
